A study of Cricetulus griseus with 9 samples.

Results

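A group of 6 genes that carry acetyl groups into fatty acids and glycerolipids was followed in 9 mRNA libraries of MI5-4 cells, a Chinese hamster ovary subline. The 6 rows, Acss2, Acaca, Fasn, Scd1, Scd2 and Gpam, were taken by symbol from the 6753 genes of the deposited table, and all 6 were listed. The libraries formed 3 groups of 3. EV cells carried an empty vector and are labelled hexokinase null, WTHK2 cells are labelled as expressing wild-type HK2, and LAC were EV cells kept in 10 mM sodium lactate over 24 h. All were grown in the same serum-containing glucose medium, and neither the promoter of the construct, its species nor the number of clones is given in the sources used here. The 6 were chosen by their CPM levels in the EV, WTHK2 and LAC libraries, so their differences below are descriptions without a test.

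Fatty acid synthesis starts from cytosolic acetyl-CoA, which comes from citrate or, through ACSS2, from acetate. Acetyl-CoA carboxylase (ACACA) turns it into malonyl-CoA, and fatty acid synthase (FASN) builds palmitate from the pair. Stearoyl-CoA desaturases (SCD1, SCD2) put a double bond into saturated acyl chains, and GPAM joins an acyl chain to glycerol phosphate at the mitochondrial outer membrane. In many cells SREBP transcription factors raise the transcripts of the pathway when sterols are low, and acetyl-CoA is also the acetyl donor for histones.

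Values are normalized CPM (reads scaled to an effective library size). The effective sizes, read from the steps between values, ran from 18050959 to 26238659 reads. The lowest group mean of any listed gene was 20.01 to 20.04 CPM by group, so a gene below about that level in any group was not analysed here. Hk2 did not follow the label: it stood at 68.4, 68.7 and 64.9 CPM in EV, at 66.6, 65.3 and 63.9 in WTHK2 and at 64.7, 70.4 and 68.5 in LAC. The log2 difference between WTHK2 and EV was -0.044 (adjusted p = 0.522 in limma). The species of the construct is not given, so whether its reads are counted under Hk2 is not known. The libraries are called WTHK2 below after their label, and each direction given for them rests on it. Hk1 was listed in all groups, at 324 ± 7.09 CPM in EV, 285 ± 7.63 in WTHK2 and 302 ± 2.22 with lactate (SD, n = 3), so a hexokinase transcript was counted in the cells labelled null. Of 6 fibroblast-type markers, 4 were listed (Vim, Col3a1, Fn1 and Sparc), and of 12 markers of leukocytes, epithelium, endothelium, hepatocytes and adipocytes, 0 were listed. The 4 differed between groups too. In WTHK2 against EV, Vim was at 0.31, Col3a1 at 0.56, Fn1 at -0.35 and Sparc at -0.14 on the log2 scale. In LAC against EV they were at 0.035, -0.023, -0.33 and -0.24, where Vim changed sign with quantile normalization and Col3a1 with that and with every library brought to a common median. Their part in the results below was not tested. RNAs made in mitochondria, of which 4 were listed, exceeded EV in all 6 other libraries. Their median log2 distance from EV was 0.40 to 0.73 in WTHK2 and 0.45 to 0.80 in LAC, highest in replicate 1 of each. The labels do not say whether replicates were separate cultures, so errors and p-values cover no more than the spread among these libraries. Where a transcript is lower in bulk RNA, fewer cells with it and less of it per cell cannot be told apart.

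In the libraries labelled WTHK2 the 6 genes stood on both sides of EV. Acss2 and both desaturases stood above EV, and Acaca, Fasn and Gpam stood below it. With lactate 5 of the 6 genes stood below EV, both desaturases among them, and Acss2 stayed within the EV range or just above it. All 6 passed an adjusted p of 0.05 in a limma fit over all genes in WTHK2 against EV, 3 higher and 3 lower. Among all genes 46.4% passed there, 21.0% higher and 25.4% lower. In LAC against EV 5 of 6 passed, all lower, where 49.5% of all genes passed and 27.1% were lower. Between WTHK2 and LAC 4 of 6 passed, 3 higher and 1 lower, against 16.1% of all genes (7.76% lower). Groups without overlap were found for the same numbers of the 6, against 57.1% of all genes in WTHK2 and EV (26.6% higher, 30.5% lower), 57.8% in LAC and EV (27.0% higher, 30.8% lower) and 29.0% in WTHK2 and LAC. Their median log2 difference was -0.055, -0.23 and 0.27 in these 3 comparisons, beside -0.0082, -0.0035 and 0.0041 over all genes. Nothing is read from these counts, since the genes were chosen with them known.

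**Figure D1:**
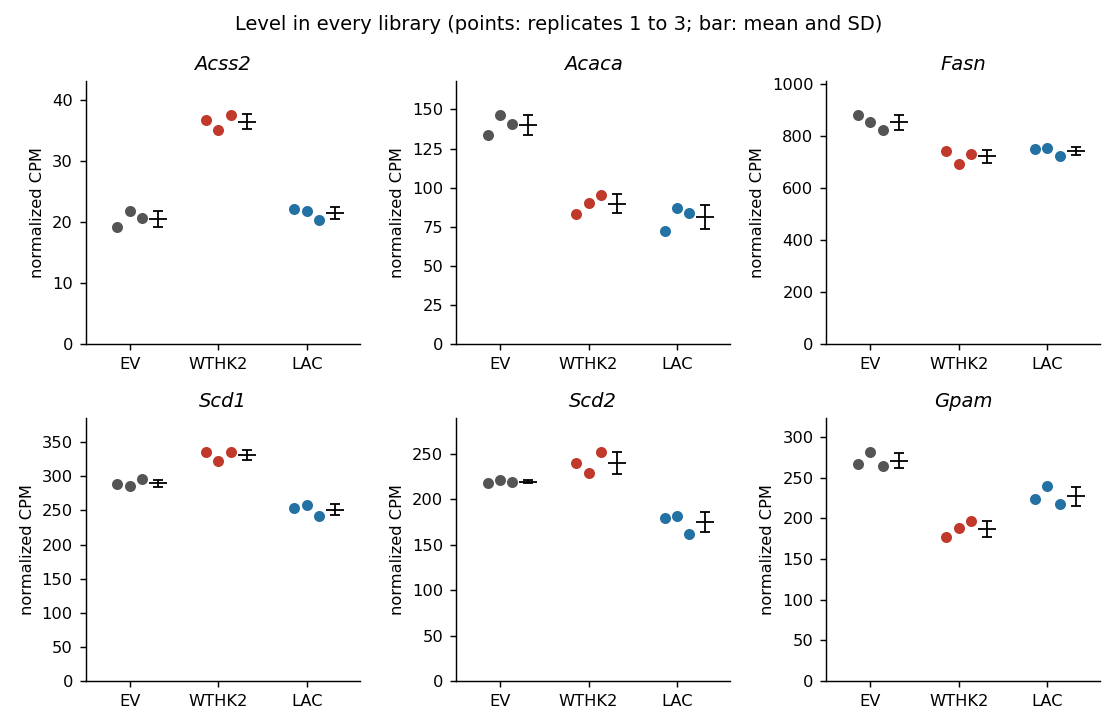
Normalized CPM (vertical axes, from 0) of the 6 genes in EV, WTHK2 and LAC. Points are replicates 1 to 3 from left to right, and the bar beside them is the mean with its SD. Acss2 is high in WTHK2 alone, Scd1 and Scd2 stand highest in WTHK2 and lowest in LAC, and Acaca and Fasn are below EV in all 6 other libraries.

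Acss2, the enzyme that makes acetyl-CoA from acetate in cytosol and nucleus, had the fewest reads of the 6. It was counted at 19.1, 21.7 and 20.6 CPM in EV, at 36.7, 35.0 and 37.4 in WTHK2 and at 22.2, 21.9 and 20.3 in LAC. The 3 libraries labelled WTHK2 lay above all 6 others, and EV and LAC overlapped. The log2 difference of CPM plus 1 between WTHK2 and EV was 0.80 (SE 0.0775, 95% interval 0.64 to 0.96), a ratio of 1.74. It was larger in size than that of 99.7% of all genes. That share in WTHK2 was 99.2% for Acaca, 98.1% for Gpam, 78.8% for Fasn, 67.5% for Scd1 and 48.6% for Scd2. For LAC against EV it was 99.8% for Acaca, 89.9% for Scd2, 78.6% for Gpam, 68.3% for Scd1, 67.3% for Fasn and 24.0% for Acss2. Several of the 6 thus shifted by amounts common among all genes. Between LAC and EV the log2 difference of Acss2 was 0.064, with an interval of -0.097 to 0.23, whose ends are ratios of 0.935 and 1.17. Between WTHK2 and LAC it was 0.74 (SE 0.0775). Each value rested on 400 to 918 reads, so counting error alone was about 5.0% at the fewest. The EV mean lay close to the lowest the table holds, and 21 genes had a lower one. Of 6739 other genes, those with the closest course over the 9 libraries were Idi1, Ints11 and Cebpd, with root mean square distances of 0.105, 0.111 and 0.117 on the log2 scale. Idi1, an isomerase of isoprenoid and sterol synthesis, had means of 49.3 ± 2.62 CPM with the empty vector, 79.2 ± 1.57 in WTHK2 and 45.9 ± 2.51 with lactate (SD, n = 3).

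Acaca, which codes for the carboxylase of the committed step, was counted at 133, 146 and 141 CPM in EV. It stood at 83.5, 90.5 and 95.3 CPM in WTHK2 and at 72.5, 87.1 and 83.6 in LAC. All 6 of these libraries lay below all of EV, while WTHK2 and LAC overlapped. The log2 difference from EV was -0.64 (SE 0.0626) in WTHK2 and -0.79 (SE 0.0626) in LAC, ratios of 0.643 and 0.580. In LAC 0.193% of genes had a value this low or lower, and in WTHK2 0.548%. Replicate 1, the library with the highest mitochondrially encoded transcripts, was the lowest for Acaca in both groups, at -0.74 and -0.94 against the EV mean. Without replicate 1 of WTHK2 and LAC the differences were -0.59 and -0.71. WTHK2 minus LAC came to 0.15, with an interval of 0.017 to 0.28. It did not pass the adjusted threshold with all libraries, but passed without WTHK2 replicate 1 (0.20), without LAC replicate 2 (0.20) and with the replicate number as a block. The genes with the nearest course were Mib1, a ubiquitin ligase of Notch signalling, Amotl1, a junction protein, and Plxna1, a semaphorin receptor, at distances of 0.0593, 0.0630 and 0.0668.

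Fasn, the synthase that builds palmitate, was the most counted of the 6, with 13364 to 20870 reads. Its EV values were 879, 855 and 821 CPM. WTHK2 had 740, 691 and 732 CPM, and LAC had 748, 752 and 722. EV did not overlap with either group, and the other two groups overlapped with each other. The log2 differences from EV were -0.24 (SE 0.0356) in WTHK2 and -0.20 (SE 0.0356) in LAC, ratios of 0.847 and 0.870. WTHK2 and LAC differed by -0.039, with an interval of -0.11 to 0.035, so a ratio between 0.925 and 1.02. In both comparisons with EV the shift of Fasn was smaller than that of Acaca. Relative to EV, the log2 ratio of Acaca to Fasn was -0.54, -0.33 and -0.34 in the WTHK2 libraries, and -0.76, -0.51 and -0.51 in the LAC libraries. Parg, Crkl and Brd3 followed Fasn most closely, at distances of 0.0276, 0.0281 and 0.0290.

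Both desaturase genes stood above EV in WTHK2 and below it in LAC. Scd1 stood at 288, 286 and 296 CPM in EV, at 336, 323 and 335 in WTHK2 and at 254, 258 and 242 in LAC. No group overlapped with another, with WTHK2 highest and LAC lowest. Its log2 difference from EV was 0.19 (SE 0.0368) in WTHK2 and -0.21 (SE 0.0368) in LAC, and WTHK2 stood above LAC by 0.40 (95% interval 0.32 to 0.47), a ratio of 1.32.

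Scd2, the paralog of Scd1, was counted at 218, 221 and 219 CPM in EV, at 239, 229 and 252 in WTHK2 and at 180, 182 and 162 in LAC. The order of the groups was that of Scd1, again without overlap, but the lowest WTHK2 library was only 0.046 above the highest EV library on the log2 scale. Its difference from EV was 0.13 (SE 0.0460) in WTHK2 and -0.33 (SE 0.0460) in LAC, and between WTHK2 and LAC it was 0.46 (95% interval 0.36 to 0.55), a ratio of 1.37. The value in WTHK2 ran from 0.093, without WTHK2 replicate 3, to 0.16, with median scaling (every library brought to a common median). It did not pass the threshold without WTHK2 replicate 3, without any 1 of the EV libraries or without the variance trend.

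Scd1 and Scd2 also lay near each other over the 9 libraries. Of 6739 genes Scd2 was the 6th nearest to Scd1, and Scd1 the 4th nearest to Scd2, at a distance of 0.0611. Among the nearest to Scd1 were Gpc1 and Tgfbr2 (0.0527 and 0.0576), and to Scd2 Tgfbr2 and Slc22a23 (0.0503 and 0.0548). Tgfbr2, a TGF-beta receptor, averaged 128 ± 0.880 CPM in EV, 142 ± 6.32 with the WTHK2 label and 104 ± 5.48 after lactate (SD, n = 3). The log2 ratio of Scd1 to Scd2 was above its EV mean by 0.063 ± 0.0461 in WTHK2 and by 0.125 ± 0.0454 in LAC (SD, n = 3). The 2 genes are close paralogs, and how reads matching both were counted is not given in the sources used here, so their separate values are uncertain.

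Gpam, the acyltransferase that opens glycerolipid assembly, was counted at 267, 282 and 265 CPM in EV. It stood at 177, 188 and 197 CPM in WTHK2 and at 224, 240 and 218 in LAC. The 3 groups did not overlap, with EV highest, LAC between and WTHK2 lowest. The log2 difference from EV was -0.53 (SE 0.0453) in WTHK2 and -0.25 (SE 0.0453) in LAC, ratios of 0.692 and 0.839, and WTHK2 stood below LAC by 0.28 (SE 0.0453), a ratio of 0.825. It was the only one of the 6 that stood lower in WTHK2 than in LAC without overlap, a direction that 14.5% of all genes took. Relative to EV, the log2 ratio of Gpam to Scd1 was -0.82, -0.68 and -0.67 in the WTHK2 libraries and -0.085, -0.0046 and -0.053 in the LAC libraries. Nearest in course were Myof, Psat1 and Cd109, at distances of 0.0313, 0.0415 and 0.0498. Psat1, of serine synthesis, averaged 169 ± 5.80 CPM in EV, 117 ± 8.52 with the WTHK2 label and 143 ± 5.35 after lactate (SD, n = 3).

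**Figure D2:**
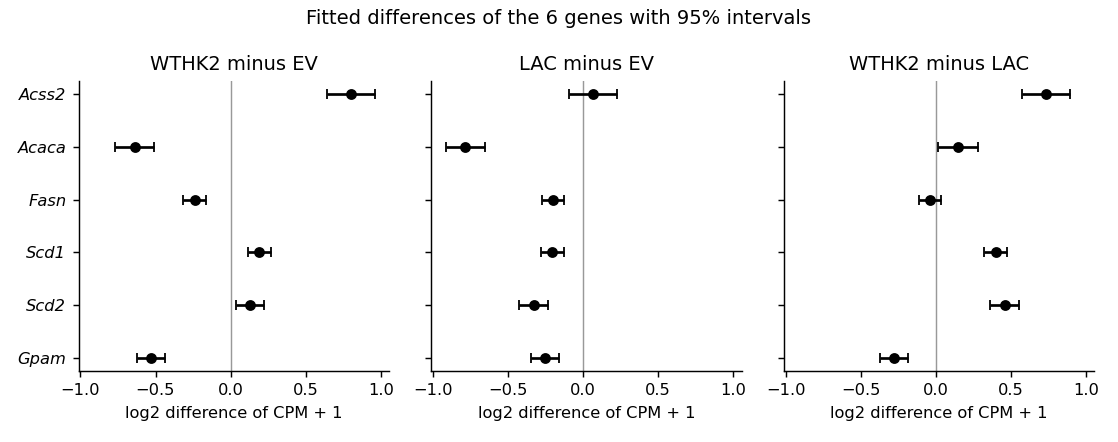
Log2 difference of CPM plus 1 (horizontal axis) for each of the 6 genes (vertical axis) in the 3 comparisons, with 95% intervals from the fit. Acaca and Fasn lie left of 0 in both comparisons with EV, the desaturases change side between WTHK2 and LAC, and Acss2 is at 0.80 in WTHK2 and 0.064 in LAC.

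Acetate activation and carboxylation, which make and use acetyl-CoA, were set side by side. Relative to EV, the log2 ratio of Acss2 to Acaca was 1.59, 1.41 and 1.43 in the WTHK2 libraries, and 1.07, 0.78 and 0.73 in the LAC libraries. In WTHK2 both genes stood away from EV, in opposite directions, while in LAC Acaca alone did. The ratio of Acss2 to Fasn was above the EV mean by 1.07 ± 0.0232 in WTHK2 and by 0.27 ± 0.0388 in LAC (SD, n = 3). The comparisons with EV share the EV libraries, so a high or low EV value would enter both. Replicates of a group varied little: the coefficient of variation was 0.866% (Scd2 in EV) to 9.44% (Acaca in LAC).

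ACACA and FASN are very long proteins, and most genes of a hand-written list for long proteins stood low in the same libraries. A list of 124 listed genes for such proteins, written by hand with the data known and without Acaca and Fasn, had a median log2 difference from EV of -0.25 in WTHK2 and -0.28 in LAC. Of the 124, 95 were lower and 2 higher in WTHK2, and 103 lower and 1 higher in LAC, where 25.4% and 27.1% of all genes were lower. Fasn lay in the middle of that list in WTHK2, with 66 of the 124 below it, and in its upper part in LAC, with 87 below it. Acaca lay at its lower end, with 3 of the 124 below it in WTHK2 and 2 in LAC. The median of the list was 0.025 in WTHK2 against LAC. Length was not measured over all genes, so these values describe the list alone. The part of this trend in the values of Acaca and Fasn was not tested.

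**Figure D3:**
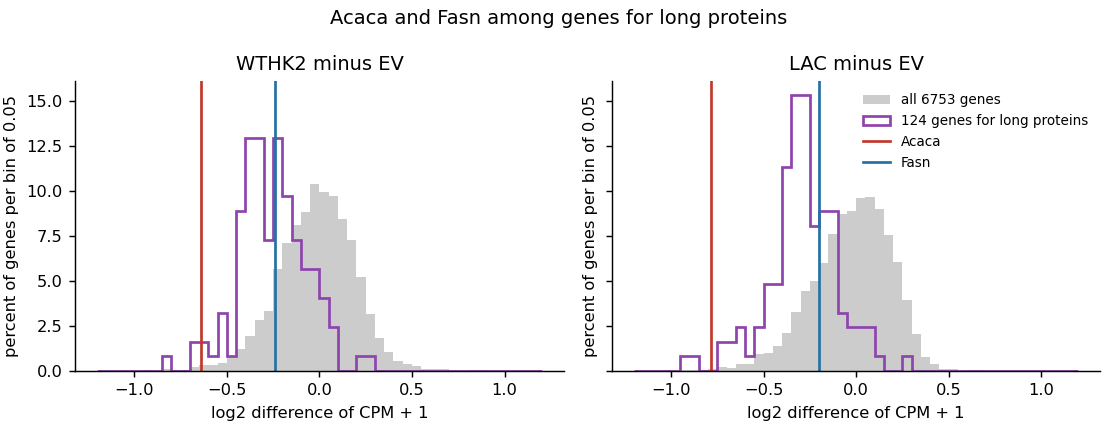
Distribution of log2 differences from EV (horizontal axis, bins of 0.05) as percent of genes (vertical axis) for all 6753 genes (grey) and 124 genes for long proteins (purple outline), with vertical lines at Acaca and Fasn. Fasn falls inside the purple distribution, and Acaca at its left end.

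Many genes next to Gpam also stood low in WTHK2. Gene order was taken by symbol from the RefSeq table of the assembly CriGri-PICRH-1.0, which may not be the build of the counts. It matched 6143 of the 6753 genes and 4 of the 6, since Scd1 and Scd2 had no entry. Of the 14 listed genes nearest to Gpam, 11 were lower and 0 higher in WTHK2 than in EV, with a median of -0.25, beside 25.4% lower among all genes. These included Shoc2 at -0.25 and Pdcd4 at -0.30, which follow it, and Zdhhc6 at -0.27, before it, and Gpam itself was lower than all but 1 of the 14. In LAC 4 of the 14 were lower than in EV and 2 higher, with a median of -0.11, where 27.1% of all genes were lower. In WTHK2 against LAC 7 of the 14 were lower and 0 higher, with a median of -0.15, beside 7.76% lower among all genes. The 14 neighbours of Acss2 also had 7 lower and 0 higher in that comparison. The part of the run around Gpam in the value of Gpam was not tested. Around Acss2 the 14 neighbours ranged from -0.45 to 0.32 in WTHK2 against EV, with a median of -0.043, and around Acaca from -0.33 to 0.22, with a median of 0.021. Both genes lay outside the range of their neighbours there. The neighbours of Fasn ranged from -0.60 to 0.26 with a median of -0.0031, a range that holds Fasn.

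**Figure D4:**
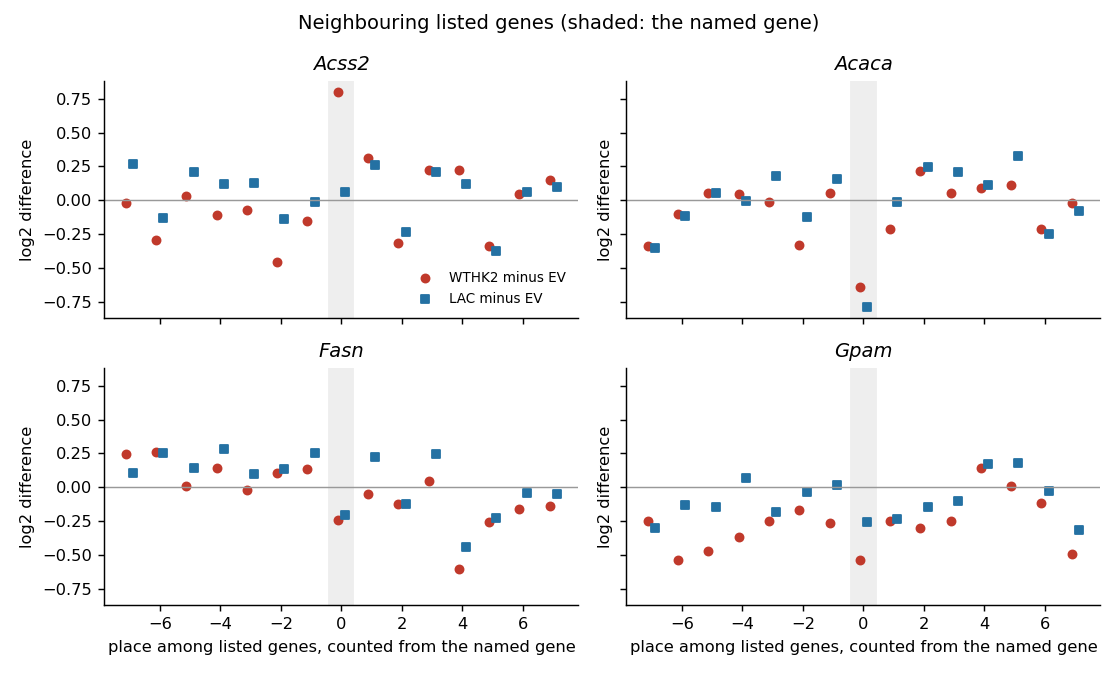
Log2 difference from EV (vertical axes) in WTHK2 (red circles) and LAC (blue squares) of the 7 listed genes on either side of Acss2, Acaca, Fasn and Gpam, by place in gene order (horizontal axes). Acaca lies below all its neighbours in both comparisons, Acss2 lies above all its neighbours in WTHK2 but within their range in LAC, and 11 of the 14 neighbours of Gpam passed as lower in WTHK2.

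The other genes of lipid metabolism were counted from 8 lists without the 6 genes. Of 203 symbols written down 112 were in the table, and these were tested in the same limma fit with p-values adjusted over all 6753 genes. The lists, and that of sterol synthesis below, were written with earlier results of these data known, so their shares are descriptions and support nothing. Of the 112, 40 were higher and 13 lower in WTHK2 than in EV, which is 35.7% higher where 21.0% of all genes were. In LAC 20 were higher and 22 lower than in EV (17.9% higher, beside 22.4% of all genes). That split depends on the scaling: it was 37 higher and 14 lower with median scaling, and 28 and 15 with quantile normalization. Calls over all 6753 genes moved the same way, from 1512 higher and 1829 lower to 2056 and 1450 with median scaling. With quantile normalization they were 1794 and 1593. Set against LAC, WTHK2 had 21 higher and 4 lower, which is 18.8% higher beside 8.37% of all genes. By list, the share called in either direction was 33.3% to 52.4% in WTHK2 against EV, beside 46.4% of all genes, 11.1% to 50% in LAC against EV, beside 49.5%, and 8.33% to 55.6% in WTHK2 against LAC, beside 16.1%.

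Genes that supply acetyl-CoA and NADPH rose in part in WTHK2 against EV, with 4 of 8 higher and 0 lower. The share called was 50% there, beside 46.4% of all genes (21.0% higher), and 50% in LAC against EV, beside 49.5%. Idh1, the cytosolic NADPH-making isocitrate dehydrogenase, rose from 40.1 ± 3.48 to 52.8 ± 4.14 CPM (log2 difference 0.39, SE 0.0730, adjusted p = 2.36e-04). Slc25a1, which exports citrate from mitochondria, rose by 0.23 (adjusted p = 0.00158) and Pgd, of the pentose phosphate pathway, by 0.15 (adjusted p = 0.00112). Both Idh1 and Slc25a1 were near the EV level in LAC, at 40.1 ± 1.54 and 79.1 ± 3.24 CPM, and WTHK2 exceeded LAC for Idh1 by 0.39 (adjusted p = 9.24e-04). In LAC against EV 2 of 8 were higher (Mdh1 at 0.12 and Acat1 at 0.10) and 2 lower (Slc33a1, an acetyl-CoA transporter of the endoplasmic reticulum, at -0.24, and Me1, malic enzyme, at -0.14), or 2 and 0 with median scaling. These 4 calls were lost in 4 to 8 of 20 alternatives. Mdh1 lost its call without EV replicate 1 or 3 or LAC replicate 1 or 3 (adjusted p up to 0.0883), and Acat1 without any 1 EV library or LAC replicate 2 or 3 (up to 0.130). Slc33a1 lost it without EV replicate 1 or 2 or LAC replicate 2 (up to 0.121), and Me1 without EV replicate 1 or 2 or LAC replicate 1 or 3 (up to 0.138). The call of Slc25a1 between WTHK2 and LAC (0.19) was lost without WTHK2 replicate 3 (adjusted p = 0.0937) or LAC replicate 1 (0.0736).

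Pyruvate dehydrogenase genes, the mitochondrial route from pyruvate to acetyl-CoA, passed in 3 of 8 cases in WTHK2 against EV, 2 higher and 1 lower. That share, 37.5%, is close to the 46.4% of all genes. Pdk2, a kinase that switches the complex off, rose from 43.8 ± 2.42 to 53.0 ± 1.96 CPM (log2 difference 0.27, SE 0.0629, adjusted p = 0.00165), and stood at 43.2 ± 1.62 CPM in LAC. Mpc2, a subunit of the mitochondrial pyruvate carrier, rose by 0.25 in WTHK2 (adjusted p = 0.00831) and by 0.26 in LAC (adjusted p = 0.00621). Pdpr, a regulator of the phosphatase of the complex, fell by 0.30 in both (adjusted p = 0.00138 and 0.00113). Dlat, a core subunit, was at -0.13 in LAC (adjusted p = 0.0110), a call lost without EV replicate 1 (0.0650) or LAC replicate 1 (0.0608) and with median scaling (0.0701) or quantile normalization (0.0746).

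Cofactor genes that passed against EV were all higher. The carboxylase needs biotin, the synthase a pantetheine arm made from coenzyme A, and the desaturases electrons from cytochrome b5. In WTHK2 5 of 10 were higher than in EV and 0 lower. That is 50% called, beside 46.4% of all genes (21.0% higher), and in LAC 30% were called, beside 49.5%. Pank4, of the pantothenate kinase family, rose from 49.8 ± 2.58 to 71.5 ± 9.51 CPM (log2 difference 0.51, SE 0.0733, adjusted p = 1.75e-05). Ppcs and Coasy, of coenzyme A synthesis, both rose by 0.28 (adjusted p = 0.00193 and 1.12e-04). In LAC 3 of 10 were higher and 0 lower (7 of 10 higher with median scaling), among them Cyb5r1, of the cytochrome b5 reductase family, at 0.22 (adjusted p = 6.55e-04) and Coasy at 0.19 (adjusted p = 0.00261). Cyb5a, at 0.14, lost its call without EV replicate 1 or 3 or LAC replicate 3 (adjusted p up to 0.222). Cyb5b, the mitochondrial outer membrane cytochrome b5, stood higher in WTHK2 than in LAC by 0.32 (adjusted p = 7.93e-04).

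Other genes of fatty acid synthesis, elongation and desaturation were higher in WTHK2 than in EV or did not pass. There 6 of 12 were higher than in EV and 0 lower. Called were 50%, beside 46.4% of all genes (21.0% higher), and 41.7% in LAC against EV, beside 49.5%. Tecr, the reductase of the elongation cycle, rose from 297 ± 18.2 to 378 ± 9.20 CPM (log2 difference 0.35, SE 0.0440, adjusted p = 3.94e-06). Elovl1, an elongase of very long chains, rose by 0.32 (adjusted p = 0.00253), and Mcat, the malonyl transferase of mitochondrial fatty acid synthesis, by 0.27 (adjusted p = 0.00627). In LAC 4 of 12 were higher and 1 lower. Fads3, a desaturase family member, rose by 0.28 (adjusted p = 2.98e-04), Tecr by 0.25 (adjusted p = 1.26e-04) and Elovl1 by 0.23 (adjusted p = 0.0192, lost without EV replicate 2 at 0.141 or LAC replicate 1 at 0.127). Hacd3, a dehydratase of elongation, was at -0.28 (adjusted p = 0.00855, lost without LAC replicate 3 at 0.0717). In WTHK2 against EV Hacd3 was at -0.20 (adjusted p = 0.0521), short of the threshold, and passed as lower in 7 of 20 alternatives. WTHK2 and LAC differed in 1 of the 12, Degs1, the dihydroceramide desaturase, at 0.12 (adjusted p = 0.0447). That call was lost in 11 of 20 alternatives, among them leaving out EV replicate 1 or 3, LAC replicate 1 or 3 or any 1 WTHK2 library (adjusted p up to 0.182).

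The list of fatty acid uptake, binding and activation, which also holds acyl-CoA thioesterases, had 3 of 9 genes higher in WTHK2 than in EV and 0 lower. This list had 33.3% called there, beside 46.4% of all genes (21.0% higher). It had 11.1% in LAC against EV, beside 49.5%, and 55.6% in WTHK2 against LAC, beside 16.1%. Acot7, an acyl-CoA thioesterase, rose from 90.9 ± 2.73 to 121 ± 4.50 CPM (log2 difference 0.40, SE 0.0476, adjusted p = 1.69e-06), and to 104 ± 3.70 CPM in LAC, by 0.20 (adjusted p = 0.00222). Slc27a3, of the fatty acid transport protein family, rose by 0.35 in WTHK2 and Acsl3, an acyl-CoA synthetase of lipid droplets, by 0.30 (adjusted p = 3.98e-04 and 6.58e-04). Compared with LAC, 4 of 9 were higher and 1 lower, with Acsl3 at 0.36 (adjusted p = 4.54e-04) and Slc27a3 at 0.27 (adjusted p = 0.00964, lost without WTHK2 replicate 3 at 0.0560). Acbd5, an acyl-CoA binding protein of peroxisomes, was at 0.25 (adjusted p = 0.0178) and the thioesterase Acot8 at -0.30 (adjusted p = 0.0145). These 2 calls were lost without LAC replicate 1, at 0.0652 and 0.102, and that of Acbd5 also without LAC replicate 3 (0.0748) or WTHK2 replicate 1 or 3 (0.0570 and 0.0524).

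Other genes of glycerolipid assembly and storage went both ways. In WTHK2 6 of 18 were higher than in EV and 3 lower. Calls made up 50% of the list there, beside 46.4% of all genes. They made up 44.4% in LAC against EV, beside 49.5%, and 33.3% in WTHK2 against LAC, beside 16.1%. Dgat1, which makes triglyceride, rose from 30.1 ± 1.2 to 38.6 ± 3.67 CPM (log2 difference 0.35, SE 0.0823, adjusted p = 0.00193), and the lipid phosphatase Plpp1 by 0.26 (adjusted p = 0.00323). Lpin2, a phosphatidate phosphatase, fell from 59.4 ± 4.44 to 40.7 ± 5.72 CPM, with a log2 difference of -0.54 (SE 0.0872, adjusted p = 5.57e-05), and to 38.7 ± 3.60 in LAC, -0.61 (adjusted p = 1.57e-05). Fitm2, of lipid droplet formation, fell in WTHK2 (-0.38, adjusted p = 1.56e-05), to below its level in LAC (-0.24, adjusted p = 0.00392). Plin3, a droplet coat protein, was at 0.27 in WTHK2 (adjusted p = 0.0109), lost without EV replicate 2 at 0.101, and Agpat5, an acyltransferase, at -0.24 (adjusted p = 0.0274), lost without EV replicate 3 at 0.156, WTHK2 replicate 1 at 0.114 or with median scaling at 0.0529. In LAC 2 of 18 were higher and 6 lower, but 5 were higher and 3 lower with median scaling. The acyltransferases Agpat4 and Lclat1 were at 0.29 (adjusted p = 0.00117) and -0.31 (adjusted p = 8.60e-04), the droplet protein Cidec at 0.19 (adjusted p = 0.00954) and the lipid phosphatase Plpp3 at -0.28 (adjusted p = 0.00319). Against LAC, 4 of 18 were higher in WTHK2 and 2 lower, with Plpp3 at 0.40 (adjusted p = 6.13e-04) and Cidec at -0.25 (adjusted p = 0.00357). Plin3 at 0.26 lost its call without WTHK2 replicate 2 or 3 or LAC replicate 2 or 3 (adjusted p up to 0.152), and Plpp2 at 0.18 without WTHK2 replicate 2 (0.0628) or LAC replicate 2 (0.0607).

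Among regulators of lipid synthesis, the group means of Srebf2, Insig1, Mid1ip1 and Pparg stood in the order of the desaturases. Acss2, Acaca, Fasn and Gpam did not have that order. Mid1ip1 averaged 39.1 CPM in WTHK2, 35.9 in EV and 31.9 in LAC, while Insig1 and Pparg overlapped between EV and LAC. Srebf2, the gene for SREBP2, averaged 198 ± 6.43 CPM in EV, 215 ± 14 in WTHK2 and 156 ± 6.30 after lactate (SD, n = 3). It fell in LAC with a log2 difference of -0.35 (SE 0.0472, adjusted p = 9.85e-06) and was higher in WTHK2 than in LAC by 0.46 (adjusted p = 6.60e-07). In WTHK2 against EV it was at 0.12 (adjusted p = 0.0509), short of the threshold, which it passed in 9 of 20 alternatives. Those included leaving out WTHK2 replicate 1 (0.0109), LAC replicate 1 (0.0387) or LAC replicate 2 (0.0421). Insig1, which holds SREBPs in the endoplasmic reticulum and is itself an SREBP target, rose in WTHK2 from 52.5 ± 2.23 to 66.1 ± 3.69 CPM, by 0.32 (SE 0.0589, adjusted p = 1.81e-04). It stood at 50.6 ± 0.989 CPM in LAC. Scap, the escort of SREBPs, was at -0.058 in WTHK2 (adjusted p = 0.299) and -0.075 in LAC (adjusted p = 0.170), and without WTHK2 replicate 3 the first of these passed (-0.11, adjusted p = 0.0476). Srebf1 was not analysed here.

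Of the whole list of 26 regulators, 7 were higher and 5 lower in WTHK2 than in EV (46.2% called, beside 46.4% of all genes). In LAC 3 were higher and 8 lower (42.3% called, beside 49.5% of all genes), or 6 and 6 with median scaling. Nr1h3, the oxysterol receptor LXR-alpha, rose by 0.39 in WTHK2 (adjusted p = 3.23e-04) and by 0.46 in LAC (adjusted p = 5.44e-05). Mlx, the partner of the glucose sensors MondoA and ChREBP, rose by 0.36 in WTHK2 (adjusted p = 3.69e-04) and stood above LAC by 0.33 (adjusted p = 0.00242). Falls were shared by Sp1, a GC-box factor (-0.44 in both, adjusted p = 1.89e-04 and 1.74e-04), and Rxra, a partner of LXR (-0.26 and -0.38, adjusted p = 0.00795 and 3.73e-04). MBTPS2, a protease that releases SREBPs, was at -0.25 and -0.38 (adjusted p = 0.0154 and 6.69e-04), and the first of these calls was lost without EV replicate 1 (0.0725) or WTHK2 replicate 1 (0.0612). Usf2 at 0.17 and Stk11 at 0.14 in LAC lost their calls without LAC replicate 1 (adjusted p = 0.104 and 0.0582) or EV replicate 2 (adjusted p = 0.0526 and 0.108), and Stk11 also without LAC replicate 3 (0.0813).

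Fatty acid oxidation, the opposing pathway, had genes on both sides. In WTHK2 7 of 21 were higher than in EV and 4 lower. Of the list 52.4% passed there, beside 46.4% of all genes, and 33.3% in LAC against EV, beside 49.5%. The mitochondrial enzymes Hsd17b10 and Acadl rose by 0.21 and 0.19 (adjusted p = 3.02e-04 and 0.00108), and Acads was at 0.26 (adjusted p = 0.0104, lost without EV replicate 1 at 0.0558 or WTHK2 replicate 3 at 0.0588). The peroxisomal oxidase Acox3 fell, at -0.35 (adjusted p = 4.13e-04), and so did Cpt1a, the gate of mitochondrial import that malonyl-CoA inhibits (-0.22, adjusted p = 0.00330). In LAC 4 of 21 were higher and 3 lower, or 8 and 3 with median scaling. Acox3 was at -0.47 there (adjusted p = 2.58e-05), Abcd3, a peroxisomal transporter, at -0.26 (adjusted p = 6.13e-04) and Hsd17b10 at 0.24 (adjusted p = 5.51e-05). Etfdh at 0.19 and Acaa2 at 0.18 lost their calls without EV replicate 2 (adjusted p = 0.126 and 0.0547), and Etfdh also without EV replicate 3 or LAC replicate 2 or 3 (up to 0.0740). WTHK2 and LAC differed in Acadl, at 0.14, and Acad9, at -0.16. Both calls were lost without WTHK2 replicate 2 (adjusted p = 0.0518 and 0.0615) or 3 (0.107 and 0.153), and that of Acad9 also without EV replicate 2 or any 1 LAC library (0.0502 to 0.0855).

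Sterol synthesis genes, which share SREBP control with the 6, were higher in 18 of 20 cases in WTHK2 than in EV and lower in 0. These are 90% of the list, where 21.0% of all genes were higher. In LAC 3 were higher and 9 lower (60% called, beside 49.5% of all genes), or 6 and 6 with median scaling.

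**Figure D5:**
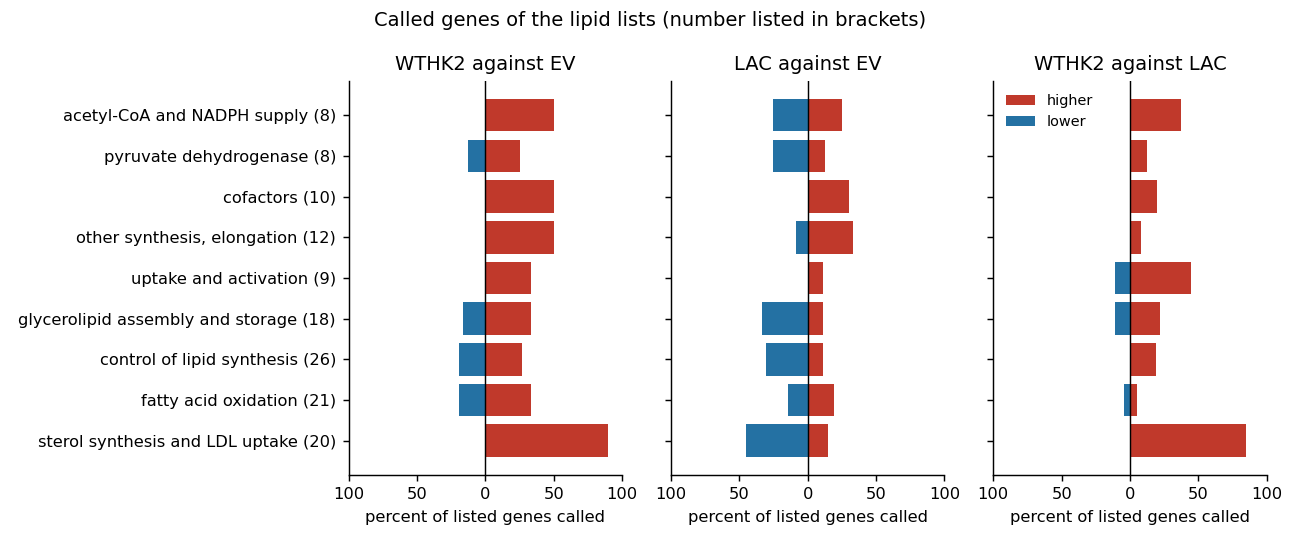
Percent of the listed genes of each lipid list (rows, number in brackets) that passed as higher (red, right) or lower (blue, left) in each comparison, without the 6 genes. In WTHK2 against EV the acetyl-CoA and NADPH, cofactor, synthesis and uptake lists have called genes on the higher side only, and the sterol list reaches 90.0%.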

How the data were processed

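The deposited table holds normalized CPM, scaled by the authors to an effective library size. Per the submitters' processing notes, the tools were STAR 2.7.0a, featureCounts 2.0.1, edgeR 3.8, cutadapt 1.18 and FastQC 0.11.8. Genome build, annotation and the treatment of shared reads were not given in the sources used here. All values were whole multiples of a step per library within 0.01, which gave effective sizes and reads. The 6 genes and the lists were chosen with earlier results of these data known.

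All 9 libraries were fitted together on log2(CPM + 1) by limma 3.58.1 (R 4.3.3), using a variance trend, no covariates, two-sided tests and Benjamini-Hochberg adjustment over 6753 genes at 0.05. A minimum mean of 1 CPM removed 0 genes. Python 3.11.15, numpy 2.4.6, pandas 2.3.3 and matplotlib 3.10.9 made tables and figures. In simulated data 100 genes were given a 1.2-fold change and another 100 a 1.5-fold change. For WTHK2 against EV, LAC against EV and WTHK2 against LAC, calls recovered 62%, 68% and 62% of the first. Of the second they recovered 100%, 100% and 98%. Of all calls together, 8.99%, 4.54% and 3.61% were false. Far fewer genes changed there than passed in the data, so these shares may not carry over.

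Named from each list were up to 3 called genes per direction with the largest fold, and Srebf1, Srebf2, Scap and Insig1. Some genes that these rules name are not reported here. For likeness, log2 values were centred per gene. Alternatives were pseudocounts of 0.25 and 4, a minimum of 5 CPM or none, 2 scalings, fits of 6 libraries, no trend, a replicate block, each library left out and, added after seeing the data, voom on the recovered reads and a fit without the first WTHK2 and LAC replicates.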

Additional observations from a re-analysis of the deposited data

How the results depend on the processing

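The 6 genes were chosen on these values, so their calls under the 20 alternatives are descriptions and support nothing. In WTHK2 against EV Scd2 lost its call in 5 alternatives, with adjusted p in limma of 0.0753 without the variance trend, 0.146 without WTHK2 replicate 3 and 0.0570 to 0.0826 without 1 EV library. Acaca passed between WTHK2 and LAC in 3 alternatives (0.0236 with the replicate block, 0.0300 without WTHK2 replicate 1 and 0.0353 without LAC replicate 2).

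Genes called in WTHK2 against LAC numbered 1089 with all libraries and 662 to 1279 with 1 library left out, lowest without WTHK2 replicate 3 and 701 without LAC replicate 3. Higher genes were 45.3% of calls in both comparisons with EV, but 57.3% (WTHK2) and 58.6% (LAC) with median scaling, which moved the median of all genes by under 0.05. Same-numbered libraries did not deviate together throughout: the correlations of their deviations over genes were 0.0756, 0.141 and -0.0057 for WTHK2 and EV, 0.0175, 0.207 and 0.0305 for LAC and EV, and 0.437, 0.251 and 0.0733 for WTHK2 and LAC, where WTHK2 replicate 3 correlated better with LAC replicate 2 (0.186) than with its own number. The replicate block gave 3433, 3609 and 1414 calls, beside 3131, 3341 and 1089. Count tests in edgeR and DESeq2 were not run. Voom, run on the recovered reads instead, called 3191, 3353 and 1097 genes. Of 33, 32 and 21 genes named from the lists in the 3 comparisons, 4, 12 and 10 lost their call in at least 1 alternative, and 0 changed sign. Depth limits Acss2 most, with 400 reads in 1 library.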
